A study of Homo sapiens with 12 samples.

Results

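In RCC4 cells, 54 genes were lower after HIF1A and EPAS1 were silenced together, while their mean level stayed near that of the control when either was silenced alone. They were selected on CPM values (the count of a gene scaled to 1e+06 counts in its library) by a fixed rule. A member had a mean of at least 2 CPM over the control libraries, a log2 ratio of double knockdown to control of -0.4 or less in each of the 3 replicate pairs, and a mean log2 ratio between -0.25 and 0.25 for HIF1A siRNA and for HIF2A siRNA. Ratios were taken within replicate pairs after adding 0.5 CPM. The rule found 54 members among 11384 genes with the control minimum, out of 23106 gene symbols. Because the rule used all 3 comparisons with control, the levels and ratios of the members describe the choice and carry no test.

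RCC4 cells are a long-established line from a human clear cell kidney cancer that lacks working VHL. Bulk RNA-seq libraries were made 48 h after transfection, with 3 replicates in each of 4 conditions. Control cells received 2 nM control siRNA. Cells with HIF1A siRNA or HIF2A siRNA, the latter directed at EPAS1, received 1 nM of that siRNA and 1 nM control siRNA. In the double knockdown, cells received 1 nM of each HIF siRNA and no control siRNA, so that loss of both factors and absence of the control siRNA cannot be told apart. Every siRNA was a pool, all conditions share 1 cell line, and the labels do not say what separated the replicates beyond their number.

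VHL marks the HIF alpha subunits for degradation when oxygen is present. Without it, HIF-1 alpha (encoded by HIF1A) and HIF-2 alpha (encoded by EPAS1) accumulate, pair with ARNT and bind DNA at a short core motif, from which they activate genes of glycolysis, angiogenesis, matrix remodelling and pH control. The factors recognize the same core motif but differ in many of their target genes. The rule asks which genes were lower when both factors were removed and not when either was removed alone.

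The promoters of 4 members are shown here as the DNA beside the results: RAB42 and RNASET2 have the lowest ratios in the double knockdown, and ITGA5 and LPCAT1 keep their single-siRNA ratios within 0.25 of 0 in every pair. The sequences are the 250 bases before the RefSeq start (GRCh38.p14), written 5′ to 3′ on the strand of the gene. Capitals mark the HIF core, ACGTG or GCGTG, on either strand. RAB42 lies at chr1:28592015-28592264 (plus strand), RNASET2 at chr6:166956551-166956800 (minus), LPCAT1 at chr5:1523961-1524210 (minus) and ITGA5 at chr12:54419267-54419516 (minus).
RAB42: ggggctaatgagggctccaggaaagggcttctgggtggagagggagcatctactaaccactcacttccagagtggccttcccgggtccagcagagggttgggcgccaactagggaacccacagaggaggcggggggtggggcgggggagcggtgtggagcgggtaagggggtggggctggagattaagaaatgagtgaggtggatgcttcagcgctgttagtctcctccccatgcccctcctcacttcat
RNASET2: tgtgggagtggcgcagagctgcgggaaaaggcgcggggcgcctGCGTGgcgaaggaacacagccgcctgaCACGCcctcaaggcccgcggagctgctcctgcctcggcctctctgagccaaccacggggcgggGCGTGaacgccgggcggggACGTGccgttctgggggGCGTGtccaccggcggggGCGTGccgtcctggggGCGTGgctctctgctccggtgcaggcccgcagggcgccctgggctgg
LPCAT1: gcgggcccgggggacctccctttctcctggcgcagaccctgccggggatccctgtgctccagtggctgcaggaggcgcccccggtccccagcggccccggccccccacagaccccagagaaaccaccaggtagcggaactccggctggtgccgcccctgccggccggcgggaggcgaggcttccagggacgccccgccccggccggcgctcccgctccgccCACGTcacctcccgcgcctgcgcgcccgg
ITGA5: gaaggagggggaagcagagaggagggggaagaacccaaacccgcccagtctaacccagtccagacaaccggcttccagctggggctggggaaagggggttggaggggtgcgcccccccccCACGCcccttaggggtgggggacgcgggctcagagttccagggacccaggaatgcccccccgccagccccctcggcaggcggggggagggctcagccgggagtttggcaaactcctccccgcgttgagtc

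RNASET2 had 7 matches of the core before its start and 1 after it, at +44, counted from +1 at the start. LPCAT1 and ITGA5 had 1 match each, at -29 and -130, and RAB42 had none. Over windows from 250 bases before to 50 bases after the start, 44 members and 9206 of the 11384 measured genes could be matched by symbol. The core was present in 24 of 44 members (54.5%) and in 64.5% of all matched genes. Of its 2 forms, ACGTG was found in 27.3% of members and 27.5% of all genes, and GCGTG in 31.8% and 52.0%. The share of members with the core was thus below that of all matched genes, and the difference was not tested. The ETS core CCGGAAG was present in 9.09% of members and 20.8% of all genes, and the CCAAT box in 34.1% and 37.1%. A match gives letters only and is not evidence of binding. No promoter was found in the table used here for APOL1, APOL2, RAD54B, PODXL, LOXL2, DLG5, KRT19, CLU, MRC2 and ENPP4.

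Libraries held 13263168 to 20451433 counts in total, and the lowest count of a member in any library was 7. HIF1A was at 119.8, 57.6 and 109 CPM in replicates 1 to 3 of the control, 15.2, 18.0 and 22.6 CPM with HIF1A siRNA, 110.4, 114 and 135 CPM with HIF2A siRNA, and 24.5, 32.3 and 29.9 CPM in the double knockdown. Its mean ratio left 20.6% of the control level with HIF1A siRNA and 31.9% in the double knockdown. EPAS1 was left at 6.72% with HIF2A siRNA and at 6.01% in the double knockdown. With HIF1A siRNA alone EPAS1 was at 74.2% of control (pairs -0.66, -0.34 and -0.29), and with HIF2A siRNA alone HIF1A was at 130.8% (pairs -0.12, 0.98 and 0.30). The targeted RNAs thus matched the labels. The kidney marker PAX8 was present at 197 to 319 CPM. Among markers of other cell types, PTPRC, CD3E, PECAM1 and COL3A1 were at 0 in every library, but others were detected. The leukocyte marker CD68 was at 32.0 to 65.4 CPM. The stromal markers RGS5, PDGFRB and LUM were at 1.75 to 10.46, 0.655 to 8.49 and 0.218 to 2.12 CPM. In bulk RNA, fewer cells in a given state and less RNA per cell cannot be told apart.

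Most members were lower by a moderate amount in the double knockdown. Their mean ratio in the double knockdown had a median of -0.61 and ran from -1.29 to -0.45, which left between 40.9 and 73.4% of the control level (median 65.6%). Only 3 members, RAB42, RNASET2 and ZFHX2, were left at 50% or less, and with a pseudocount of 2 CPM the mean ratio of ZFHX2 was -0.60. The median over the members was -0.56, -0.58 and -0.59 in pairs 1, 2 and 3. All 11384 genes had a median of 0.03. A total of 33 members had all double knockdown libraries below all control libraries, against 8.04% of measured genes, and 20 had them below all 9 other libraries, against 1.56%. Both counts follow in part from the rule.

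**Figure D1:**
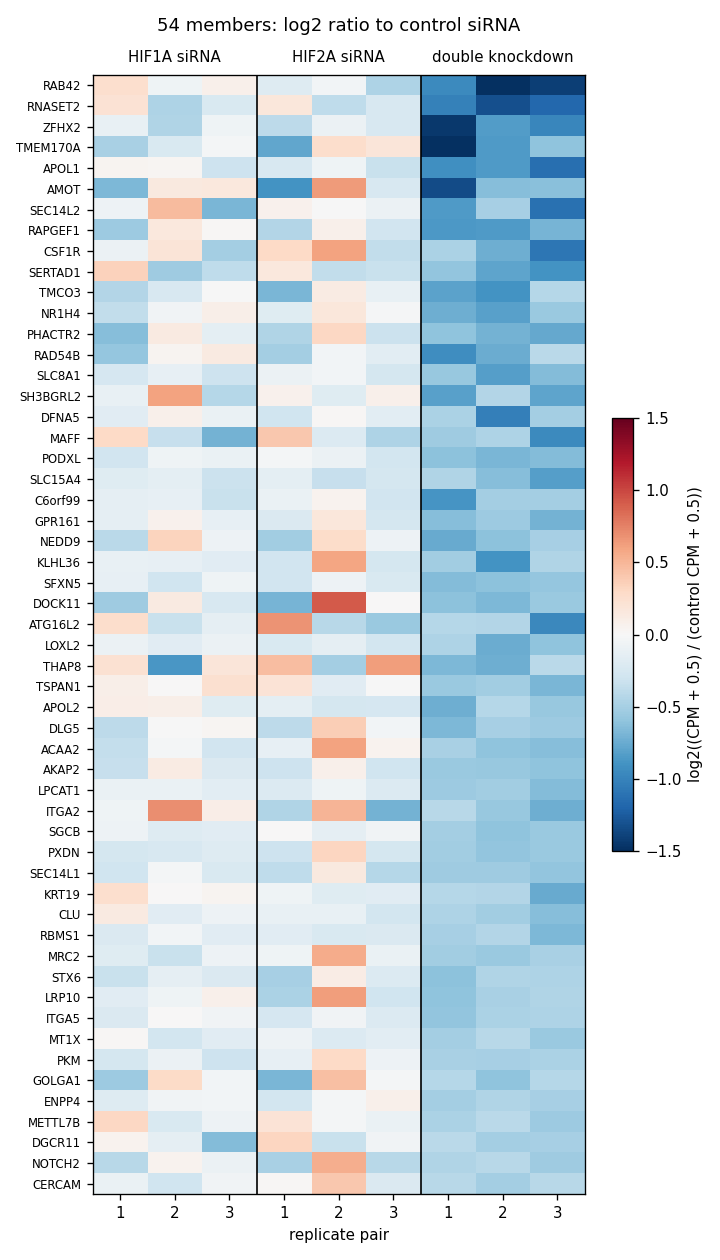
Log2 ratio to the control library of the same replicate number, after adding 0.5 CPM, for the 54 members (rows, ordered by mean ratio in the double knockdown) in 3 replicate pairs of HIF1A siRNA, HIF2A siRNA and double knockdown (columns). The double knockdown columns are at -0.4 or less throughout, as the rule requires, while single-siRNA columns mix values above and below 0.

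The single-siRNA means of the members, which the rule bounded, lay mostly below 0 within those bounds. With HIF1A siRNA the members had a median ratio of -0.14 (range -0.25 to 0.24), and 47 of 54 were below 0, compared with 39.2% of the 7715 measured genes whose single-siRNA means both lay within the same limits. With HIF2A siRNA the median was -0.13 (range -0.25 to 0.19) and 44 were below 0, compared with 50.6%. In 39 members (72.2%) both means were below 0, compared with 23.1%, and in 2 members, TSPAN1 and METTL7B, both were above 0. Fewer members were below 0 in all 3 pairs. With HIF1A siRNA there were 21 (38.9%), compared with 6.62% of the genes within the same limits, and with HIF2A siRNA 16 (29.6%), compared with 8.19%. At least 1 single-siRNA pair reached -0.4 in 25 members (46.3%), compared with 34.2% of the genes within the same limits and 44.1% of all measured genes. The limit of 0.25 applied to means, and 5 members (TSPAN1, LPCAT1, SGCB, RBMS1 and ITGA5) stayed within it in every single-siRNA pair. This share of 9.26% compares with 14.5% of the genes within the same limits and 9.83% of all measured genes. The single and double ratios share their control libraries, so a control library that is high for a gene lowers all of them, and nothing is read from the sign of the single-siRNA means.

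The double knockdown went below the sum of the single siRNAs in all 54 members. The sum of the single ratios had a median of -0.24 (range -0.47 to 0.12), and the double ratio lay a median of 0.38 log2 units under that sum (double minus sum -0.38, range -1.15 to -0.08). Over all measured genes the median of this difference was -0.01. Since the rule bounds the sum from below and the double ratio from above, this gap is largely built in. edgeR's interaction term, which compares the double ratio with the sum of the single ratios over all genes, called 0 of 13000 genes at an adjusted p under 0.05, members included (0% called). At an unadjusted p under 0.05 it had 318 genes (2.45% of those tested), 203 of them lower, and among them 18 of the 54 members. DESeq2 called 25 genes, 16 of them lower, with RAB42, RNASET2 and APOL1 as the only members. The rule chose the members on the same ratios that enter this term, so nothing is read from these member counts. In the comparison of double knockdown with control, which the rule used, edgeR called 40 members lower, where 6.42% of 13000 genes were called lower. Without the replicate block it called 3, without replicate 1 it called 22 and without replicate 3 it called 4. The share of all genes called in these settings is not given here, so a drop particular to the members and one over all genes cannot be told apart.

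**Figure D2:**
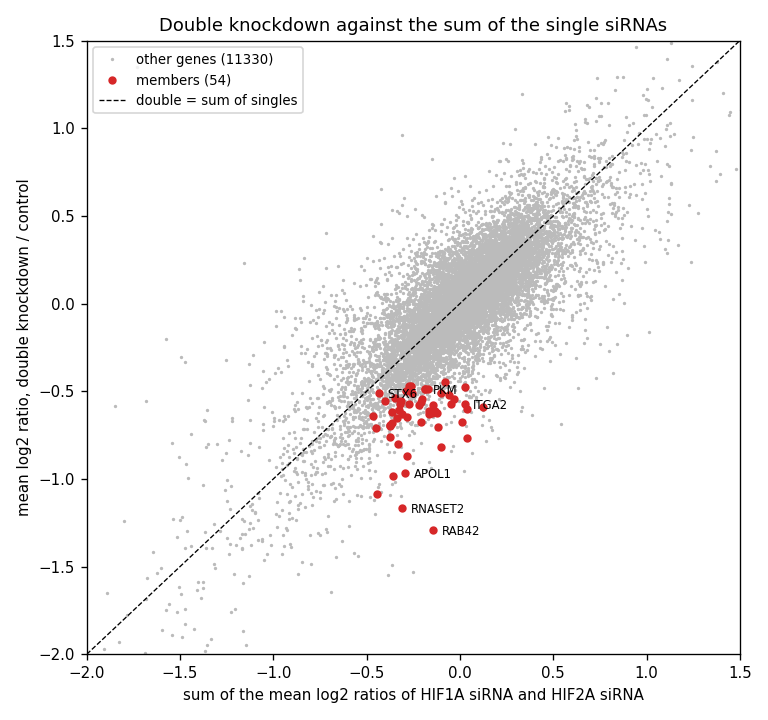
Mean log2 ratio in the double knockdown (vertical axis) against the sum of the mean log2 ratios of the single siRNAs (horizontal axis) for 11384 genes, each a point, with the 54 members in red. The members lie under the dashed line of equality, and RAB42, RNASET2 and APOL1 lie farther below it than most. Genes beyond -2 or 1.5 on either axis are not drawn.

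RAB42, a small GTPase of the Rab family that governs membrane traffic, had the lowest ratio. It was at 18.9, 13.8 and 19.6 CPM in the control, 22.6, 13.2 and 20.7 CPM with HIF1A siRNA, 16.5, 13.4 and 14.0 CPM with HIF2A siRNA, and 9.53, 4.52 and 7.09 CPM in the double knockdown. All double knockdown libraries were below the other 9. The mean ratio in the double knockdown was -1.29 ± 0.30 (SD, n = 3 pairs), compared with 0.09 ± 0.16 for HIF1A siRNA and -0.23 ± 0.22 for HIF2A siRNA.

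RNASET2, a secreted and lysosomal ribonuclease, was at 85.5, 109.9 and 106 CPM in the control, 99.5, 79.4 and 90.7 CPM with HIF1A siRNA, and 96.5, 84.3 and 89.7 CPM with HIF2A siRNA. In the double knockdown it was at 41.9, 43.96 and 46.9 CPM. The 9 other libraries overlapped freely and the double knockdown lay apart from them. Its mean ratio was -1.17 ± 0.15 (SD, n = 3 pairs) in the double knockdown and -0.16 and -0.15 with the single siRNAs.

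APOL1 and its neighbour APOL2 on chromosome 22 were the only members next to each other among measured genes. They belong to the apolipoprotein L family, and APOL1 is known for trypanosome lysis and for kidney disease risk. APOL1 was at 289, 273 and 262 CPM in the control, 297, 278 and 212 CPM with HIF1A siRNA, 244, 262 and 208 CPM with HIF2A siRNA, and 153, 152 and 119.8 CPM in the double knockdown, where every library was below the other 9. Its mean ratio was -0.96 ± 0.14 (SD, n = 3 pairs). APOL2 was at 147, 139 and 103 CPM in the control and 88.4, 102 and 69.3 CPM in the double knockdown (mean ratio -0.58). Here the groups did not overlap, but single-siRNA libraries of replicate 3, at 91.2 and 86.2 CPM, fell within the double knockdown range. The family shares sequence, so reads could be split between paralogs. Both genes are interferon-inducible. A list of interferon-stimulated genes without them (40 measured) had median ratios of 0.22 with HIF1A siRNA, -0.17 with HIF2A siRNA and -0.02 in the double knockdown. Whether interferon signalling bears on APOL1 and APOL2 here was not tested.

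**Figure D3:**
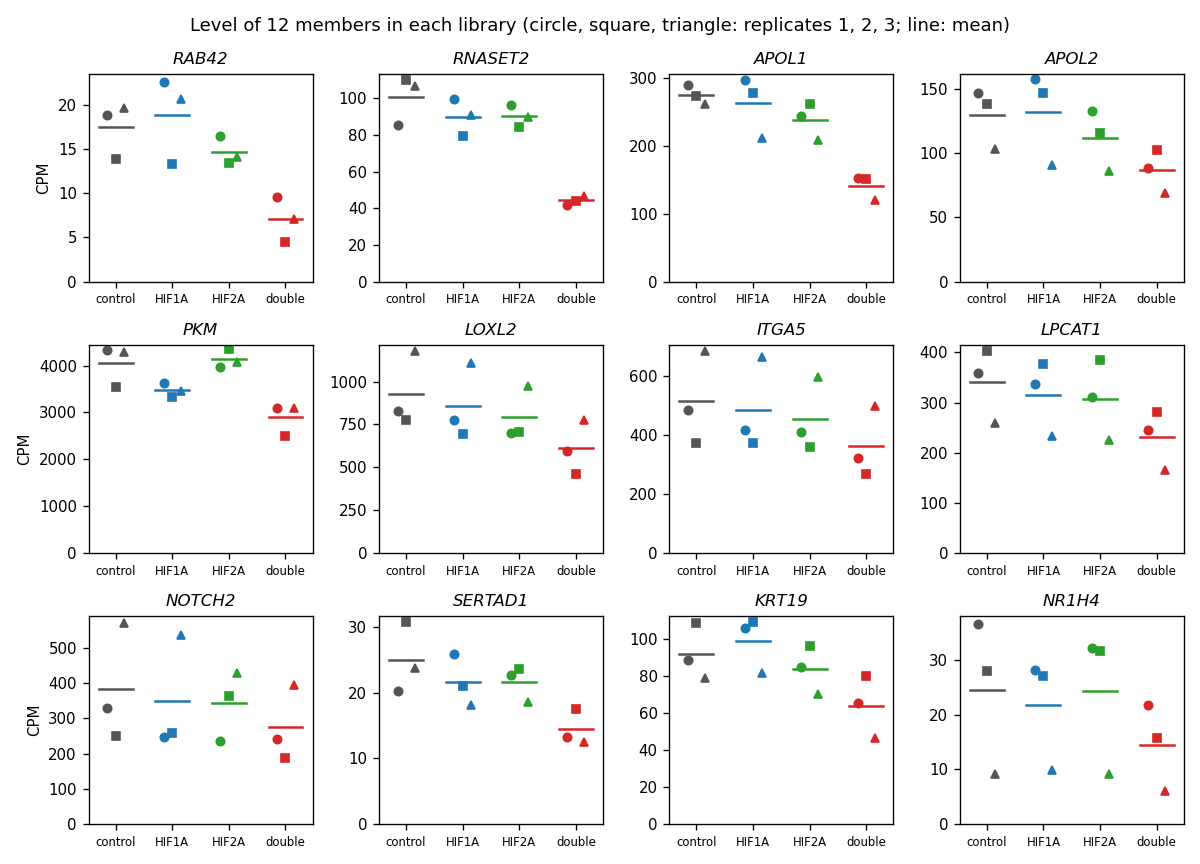
Level in CPM (vertical axis, from 0) of 12 members in each of the 12 libraries, by condition (horizontal axis), with circles, squares and triangles for replicates 1, 2 and 3 and a line at the mean of 3 libraries. RAB42, RNASET2, APOL1, SERTAD1 and PKM lie apart in the double knockdown, while for LOXL2, ITGA5, NOTCH2 and NR1H4 the replicates differ more than the conditions do.

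By role, assigned from textbook knowledge after the values were seen, 8 members act in the extracellular matrix or in adhesion (LOXL2, PXDN, ITGA2, ITGA5, SGCB, CERCAM, MRC2 and PODXL). They were left at 63.8 to 73.4% of control. LOXL2, a lysyl oxidase that cross-links collagen, was at 826, 775 and 1179 CPM in the control, 778, 691 and 1108 CPM with HIF1A siRNA, 703, 707 and 976 CPM with HIF2A siRNA and 598, 461 and 775 CPM in the double knockdown. Replicate 3 was high in every condition, and the pair ratios in the double knockdown were -0.47, -0.75 and -0.60. ITGA5, the alpha chain of the fibronectin receptor, was at 486, 373 and 686 CPM in the control and 321, 268 and 498 CPM in the double knockdown. The control and double knockdown overlapped, since replicate 3 of the double knockdown exceeded replicates 1 and 2 of the control, and the ratio held within pairs (-0.60, -0.48 and -0.46). PXDN, a peroxidase that cross-links collagen IV, had pair ratios of -0.52, -0.59 and -0.56. ITGA2, a collagen receptor chain, had -0.41, -0.57 and -0.73 and the highest HIF1A siRNA mean of any member (0.24). PODXL, a sialomucin of podocytes, had -0.61, -0.68 and -0.66.

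Another 6 members act at junctions, in polarity or in the cytoskeleton (AMOT, DLG5, PHACTR2, KRT19, AKAP2 and NEDD9), and were left at 54.8 to 68.6% of control. AMOT, an angiomotin that binds YAP, was at 35.8, 19.7 and 31.8 CPM in the control and 13.9, 12.5 and 20.3 CPM in the double knockdown. Its mean ratio was -0.87, with most of the difference in pair 1 (-1.34). In that pair AMOT was also low with HIF1A siRNA (22.3 CPM) and HIF2A siRNA (19.0 CPM), so its place within the single-siRNA limits rests on the other pairs. DLG5, a polarity scaffold, had pair ratios of -0.68, -0.50 and -0.55, and AKAP2, an anchor of protein kinase A, had -0.55, -0.56 and -0.60.

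Among 5 signalling members (RAPGEF1, DOCK11, CSF1R, NOTCH2 and GPR161), RAPGEF1, an exchange factor for Rap1, had the lowest ratio (mean -0.80; pairs -0.86, -0.85 and -0.69). It was at 71.0, 45.0 and 67.7 CPM in the control and 38.9, 24.7 and 41.7 CPM in the double knockdown, below all 9 other libraries. NOTCH2, a Notch receptor, was at 329.8, 249.9 and 570.3 CPM in the control and 240.4, 187 and 394 CPM in the double knockdown, and HIF2A siRNA gave -0.49, 0.54 and -0.41. Its HIF2A mean near 0 thus averaged pairs of opposite sign. CSF1R, the receptor of macrophage colony-stimulating factor, was at 2.26, 1.84 and 6.80 CPM in the control and 1.49, 0.905 and 2.93 CPM in the double knockdown. Of 4 leukocyte markers, PTPRC and CD3E were at 0 in every library, CD14 was at most at 0.699 CPM and CD68 was at 32.0 to 65.4 CPM. The summed level of these 4 markers, nearly all of it CD68, was 44.05 to 56.6 CPM in the control and 51.3 to 65.4 CPM in the double knockdown. Whether it bears on the lower CSF1R was not tested.

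The 6 members of membrane traffic (RAB42, STX6, GOLGA1, SEC14L1, LRP10 and ATG16L2) ranged from 40.9 to 71.3% of control. SEC14L1, a member of the SEC14 lipid-binding family, had almost equal pair ratios (-0.54, -0.54 and -0.59) and lay below all 9 other libraries. LRP10, a sorting receptor of the LDL receptor family, had pair ratios of -0.61, -0.48 and -0.45, with single-siRNA means of -0.05 and -0.05. For LRP10 with HIF2A siRNA this mean came from 59.6, 87.8 and 113 CPM against 83.2, 56.7 and 139 CPM in the control.

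In metabolism and lipid handling (PKM, ACAA2, LPCAT1, SEC14L2, METTL7B and ENPP4), PKM, the pyruvate kinase that ends glycolysis, was at 4344, 3535 and 4299 CPM in the control, 3624, 3322 and 3463 CPM with HIF1A siRNA, 3979, 4352 and 4085 CPM with HIF2A siRNA and 3097, 2493 and 3095 CPM in the double knockdown. The double knockdown was below all 9 other libraries, and the pair ratios lay within 0.03 of each other (-0.49, -0.50 and -0.47), the narrowest range of any member. With HIF1A siRNA its mean ratio was -0.22, close to the limit of the rule, and with HIF2A siRNA 0.03. LPCAT1, an acyltransferase that remodels phosphatidylcholine, was at 359.8, 403 and 260.1 CPM in the control and 246, 282 and 165 CPM in the double knockdown. Its ratios were -0.12 with HIF1A siRNA, -0.16 with HIF2A siRNA and -0.57 in the double knockdown, each of the same sign in every pair. SEC14L2, a tocopherol-binding protein, had a mean ratio of -0.82, and its HIF1A siRNA mean of -0.10 averaged pairs of -0.07, 0.47 and -0.69. METTL7B, a thiol methyltransferase (TMT1B in RefSeq), was at 5.38, 5.47 and 2.00 CPM in the control and 3.74, 3.996 and 1.22 CPM in the double knockdown. ENPP4, a nucleotide-cleaving ectoenzyme, had pair ratios of -0.50, -0.45 and -0.50.

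The 7 members that regulate genes or repair DNA (NR1H4, MAFF, SERTAD1, ZFHX2, THAP8, RBMS1 and RAD54B) had a median ratio of -0.69. NR1H4, the bile acid receptor FXR, was at 36.5, 28.0 and 9.23 CPM in the control, 28.1, 27.1 and 9.82 CPM with HIF1A siRNA, 32.2, 31.5 and 9.11 CPM with HIF2A siRNA and 21.8, 15.7 and 6.11 CPM in the double knockdown. Replicate 3 was low in every condition, so that only the ratios within pairs (-0.73, -0.82 and -0.56) separate the double knockdown. SERTAD1, a cofactor of E2F and CDK4, was at 20.3, 30.8 and 23.7 CPM in the control and 13.3, 17.6 and 12.5 CPM in the double knockdown, below all 9 other libraries. ZFHX2, a zinc finger homeobox factor, was near the control minimum, at 1.83, 3.08 and 2.31 CPM in the control and 0.358, 1.51 and 0.929 CPM in the double knockdown. MAFF, a small Maf factor, had HIF1A siRNA ratios of 0.30, -0.34 and -0.71.

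The 4 transporters (SLC8A1, SLC15A4, SFXN5 and TMCO3) were left at 61.2 to 65.2% of control. TMCO3, a putative cation and proton exchanger, was at 92.6, 72.1 and 105 CPM in the control and 52.9, 38.4 and 78.0 CPM in the double knockdown, with pair ratios of -0.80, -0.90 and -0.42. SLC15A4, an endolysosomal histidine and peptide transporter, had mean ratios of -0.64 in the double knockdown, -0.22 with HIF1A siRNA and -0.25 with HIF2A siRNA. Besides RNASET2, APOL1 and APOL2, the members of innate defence, cell death and stress were DFNA5, CLU and MT1X, and all 6 had the double knockdown below the control in every library. DFNA5 is gasdermin E (GSDME), CLU a secreted chaperone and MT1X a metallothionein with near-identical paralogs. The remaining 6 were TSPAN1, SH3BGRL2, TMEM170A, KLHL36, C6orf99 and DGCR11. TMEM170A was at 4.95, 2.98 and 5.47 CPM in the control and 1.43, 1.43 and 3.42 CPM in the double knockdown, and SH3BGRL2 had a mean ratio of -0.68. Its HIF1A siRNA mean of 0.02 averaged pairs of -0.11, 0.61 and -0.43.

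Known HIF targets made up a small part of the members, and none of the 3 met the rule under all of TMM, DESeq2 size factors, both other pseudocounts and trend removal. Of 72 measured genes on a list of canonical HIF target genes, 3 were members (LOXL2, ITGA5 and PKM), or 4.17%, compared with 0.474% of all measured genes. Of the 72, 60 (83.3%) reached -0.4 in each pair of the double knockdown, compared with 5.01% of all genes, and the list had a median ratio of -1.16 in the double knockdown, -0.84 for HIF1A siRNA and -0.02 for HIF2A siRNA. Most canonical targets that were low in the double knockdown were thus low with a single siRNA and fell outside the rule. PKM was the only member among 21 measured enzymes of glycolysis and gluconeogenesis, whose median was -0.60 in the double knockdown and -0.61 with HIF1A siRNA. Of 57 measured genes of matrix and adhesion, 14 reached -0.4 in each pair and 3 were members (LOXL2, ITGA2 and ITGA5). Of 134 measured genes that the study lists as higher in tumor than in normal epithelium, 5 were members (RNASET2, SERTAD1, MAFF, LPCAT1 and PKM).

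Of all measured genes, 570 were at -0.4 or less in each pair of the double knockdown. HIF1A siRNA gave a mean under -0.25 in 402 of them and HIF2A siRNA in 258, with 145 in both. The members were the 54 with neither, beside 1 gene with a single-siRNA mean above 0.25. The mirrored rule, with ratios of 0.4 or more in each pair, found 78 genes, more than the 54 lowered.

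The limits cut through a continuum. Just inside the limit of -0.4, the weakest pair of RAD54B, METTL7B and THAP8 was at -0.41 in each case. Just outside it, the weakest pair of SYNC, ENTPD7 and CTHRC1 was at -0.40, and SYNC had a mean ratio of -0.69, equal to that of RAD54B. Inside the limits on the single siRNAs, SLC15A4 had a mean of -0.25 with HIF2A siRNA and MAFF of -0.25 with HIF1A siRNA. FSTL1 (HIF1A siRNA) and MYO5A (HIF2A siRNA), also at -0.25 when rounded, were outside.

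To see the pattern in libraries that did not choose the genes, the rule was applied to 2 pairs and the chosen genes were read in the third. With pair 1 left out, 140 genes were chosen, of which 110 (78.6%) were at -0.4 or less in pair 1, compared with 17.3% of all genes. With pair 2 left out, it was 45 of 85 (52.9% compared with 13.5%), and with pair 3 left out, 64 of 167 (38.3% compared with 12.2%). The lower level in the double knockdown was thus seen again in each pair, at median ratios of -0.61, -0.42 and -0.31. A lower level was not particular to the double knockdown in any left-out pair, and least so in pair 1. There 46.4% of the chosen genes were also at -0.4 or less with HIF1A siRNA and 48.6% with HIF2A siRNA, compared with 15.6% and 13.8% of all genes. In pair 2 these shares were 22.4% and 36.5%, compared with 9.17% and 18.2%. In pair 3 they were 10.2% and 10.8%, compared with 5.36% and 6.17%.

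The flat single-siRNA ratios were seen again in part. In pair 1, left out, the chosen genes had a median of -0.35 for HIF1A siRNA, a median of -0.39 for HIF2A siRNA, and the double ratio was a median of 0.10 above the sum of the singles. In pair 2 the medians were -0.13 and -0.21 and the difference from the sum was -0.02. In pair 3 the single-siRNA medians were closest to 0, at -0.05 and -0.10, with a difference from the sum of -0.17, but the double knockdown was least low there. The double knockdown was the lowest of the 3 silenced libraries in 75.7, 55.3 and 75.4% of the chosen genes, compared with 32.6, 35.4 and 33.7% of all genes. The 3 ratios of a pair share their control library, so a high control library lowers all of them together.

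**Figure D4:**
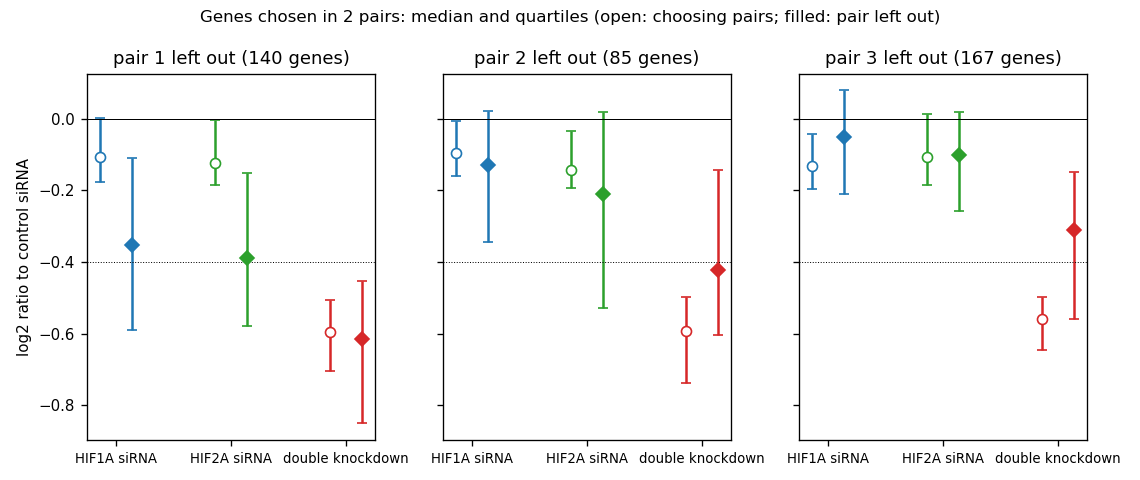
Median log2 ratio to control, with quartiles as bars, of genes chosen by the rule in 2 replicate pairs, in the pairs that chose them (open circles) and in the pair left out (filled diamonds), for each pair left out (panels) and each siRNA condition. The double knockdown stays below 0 in every left-out pair. The single-siRNA medians are also below 0 in each, and lowest in pair 1.

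GC content and length were not used by the rule. The members' transcripts had a median GC content of 51.2%, compared with 47.6% for all measured genes, and a median length of 4228 bases, compared with 3423 bases. The 570 genes at -0.4 or less in each pair of the double knockdown, which include the members, had medians of 49.0% and 4028 bases. When a trend of the counts with GC content and length was removed in each library, all 54 members stayed below 0 in the double knockdown, with a median of -0.55 (range -1.31 to -0.34), but 25 no longer met the rule. Of these, 19 failed the limit on the double knockdown and 6 a limit on a single siRNA alone. RNASET2, APOL1, LPCAT1 and PKM still met it (PKM did not with TMM-scaled totals or DESeq2 size factors), while ITGA5, RAB42 and LOXL2 did not: ITGA5 reached -0.38 in its weakest pair, and the HIF2A siRNA means of RAB42 and LOXL2 became -0.27 and -0.25, the latter just past the limit. Members lay on many chromosomes, at unequal shares that were not tested. They were 6 of 508 measured genes on chromosome 6 (1.18%), 5 of 283 on chromosome 22 (1.77%) and 5 of 1134 on chromosome 1 (0.441%). Chromosome 3 had 0 of 628, chromosome 20 had 0 of 312 and chromosome 21 had 0 of 105. The share over all measured genes was 0.474%.

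**Figure D5:**
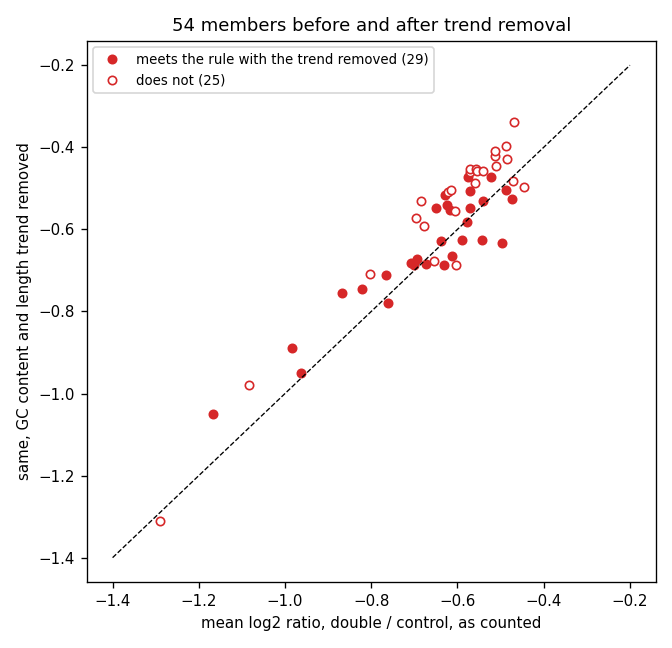
Mean log2 ratio of double knockdown to control for the 54 members with a trend of GC content and length removed (vertical axis) against the ratio as counted (horizontal axis); the dashed line marks equality. Filled points (29) still met the rule and open points (25) did not, and all points lie below 0 on both axes.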

How the data were processed

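Counts were read for the 12 libraries of RCC4 cells, 3 for each siRNA condition. The authors trimmed adaptors with Trim Galore (0.3.3), aligned reads to hg19 with HISAT2 (2.05), kept uniquely mapped fragments with Picard (2.0.1), counted fragments per gene with HTSeq (0.5.4p3) and deposited raw counts without normalization. Whether counting used strand is not given in the sources used here, so genes with an overlapping or near-identical partner (DGCR11, C6orf99, AKAP2, MT1X, KRT19, PKM, APOL1 and APOL2) are uncertain.

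CPM used the total of each file. The members and gene lists were chosen with earlier results of these data known, and some lists were copied from the study. Named genes were HIF1A and EPAS1, the 12 members with the lowest ratio, the 10 with the highest control CPM, the 5 with the closest pair ratios, the 5 with the smallest single-siRNA ratios, members of lists with at least 3 members or of a list that is named, and genes next to the limits. Other members were named after their values were seen. edgeR (4.0.16, in R 4.3.3) fitted all 12 libraries over 13000 genes with TMM, its expression filter and a block for replicate number, and p-values were adjusted by Benjamini-Hochberg. The study paired conditions by replicate. Libraries of equal number deviated together from their condition means, but to an unequal degree (correlations across genes 0.111 to 0.875 over 18 pairs). The lowest were those of control replicate 1 with HIF2A siRNA (0.111) and HIF1A siRNA (0.170), so pairing was weak for the single-siRNA ratios of pair 1. Pairing was also weak for HIF2A siRNA replicate 2. Its correlations were 0.257 with control, 0.259 with HIF1A siRNA and 0.247 with the double knockdown of that number. Replicates differed by more than sampling noise. P-values measure the spread between these samples, which may be technical. The scripts were tested on simulated data. DESeq2 (1.42.0), other scalings, pseudocounts, filters and left-out libraries were tried as alternatives. Promoters came from RefSeq (GRCh38.p14), another build than that of the counts, and were matched by symbol. The 23106 symbols were matched to GENCODE for GC content and length (21753 matched).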

Additional observations from a re-analysis of the deposited data

How the results depend on the processing

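Which genes met the rule depended on its limits and on each library. The rule found 54 genes as reported, 54 with TMM-scaled totals (43 of them shared with the 54 members) and 54 with DESeq2 size factors (45 shared). A pseudocount of 0.1 or 2 CPM gave 51 (48 shared) and 49 (43 shared), no control minimum 66, a minimum of 10 CPM 44, and removal of the GC content and length trend 69 (29 shared). A set of 20 members met it under TMM, DESeq2 size factors, both pseudocounts and trend removal. It found 5 genes with the single-siRNA limit applied to each pair, and 269 (51 shared) without the replicate block, from ratios of condition means. Leaving out 1 replicate number or 1 library gave 43 to 229 genes. There were 140 (41 shared) without replicate 1, 85 (23 shared) without replicate 2 and 167 (44 shared) without replicate 3. Without double knockdown replicate 1, 2 or 3 there were 114, 112 and 229, each with all 54 members. In these settings fewer pairs have to meet the limit on the double knockdown. Without HIF1A siRNA replicate 2 there were 43 (36 shared), and without HIF2A siRNA replicate 2 also 43 (31 shared). Members were thus lost as well as genes gained when a replicate number was left out.

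Pooled over the 3 left-out pairs, the share of chosen genes at -0.4 or less was 55.9%. It was 58.2% or 56.9% with a pseudocount of 2 CPM or TMM. A gene chosen more than once counted each time. By pair the share ran from 38.3 to 78.6%, compared with 12.2 to 17.3% of all genes. edgeR called 40 members lower in the double knockdown and between 4 and 48 with a replicate number or library left out. It called 22 without replicate 1, 42 without replicate 2 and 4 without replicate 3. Without the replicate block it called 3 members, and the cause was not tested. These member counts stand without the share of all genes called in the same settings, so they do not show a change particular to the members. The interaction term called 0 members in edgeR under every alternative run and 3 with DESeq2. The sign of each member's ratio in the double knockdown was kept under TMM, a pseudocount of 2 CPM and each replicate left out. With a pseudocount of 2 CPM, 8 members moved by more than their spread between pairs, among them ZFHX2 (to -0.60) and DOCK11 (from -0.61 to -0.38). At 13263168 to 20451433 counts per library, members near the control minimum, such as ZFHX2, rest on as few as 7 counts.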
